A study of Homo sapiens with 12 samples.

Results

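The extracellular matrix is the network of collagens, laminins, glycoproteins and proteoglycans that cells secrete and stand on, and integrins are the receptors by which they hold it. The genes described here were the rows of the expression table named as collagen chains (COL), laminin chains (LAMA, LAMB, LAMC), integrin alpha and beta subunits (ITGA, ITGB), thrombospondins (THBS) and tissue inhibitors of metalloproteinases (TIMP), and 11 further matrix or matrix-linked genes picked by name, FN1, VCAN, VIM, SPARC, BGN, HSPG2, AGRN, CD44, SPP1 and the pair of enzymes MMP14 and LOXL2. They came to 50 of the 11548 rows. Of 98 symbols listed for these families and names, those without a row were not analysed here. By role, 8 were fibrillar or fibril-associated collagens, 6 other collagens, 10 laminin chains or basement membrane proteoglycans, 8 integrin alpha and 4 integrin beta subunits, 8 matricellular or interstitial glycoproteins and proteoglycans, 4 proteases, inhibitors or cross-linkers, and 2 the hyaluronan receptor CD44 and the intermediate filament vimentin (VIM).

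RNA sequencing was carried out on 3 human hepatocellular carcinoma cell lines, Hep3B, Huh7 and MHCC97H, all labelled wild type. Each line was left untreated, treated with AZD8055 (100 nM), an ATP-competitive inhibitor of the mTOR kinase, treated with compound #57, an allosteric inhibitor of the phosphatase SHP2, or given the combination of AZD8055 (100 nM) and compound #57 (5 µM). The dose of compound #57 alone was not given in the sources used here. Exposure lasted 48 h in Hep3B and Huh7 and 24 h in MHCC97H, so that line and time cannot be told apart, and each line and treatment had 1 library, 12 in all. Levels are normalised reads, the reads of a gene scaled to a library of 10000000 reads, and the libraries held between 10659951 and 15957251 reads. The 3 lines served as the replicates of a treatment, and p-values for treatments are set against how far the lines differ in their changes. P-values for lines rest on that same spread, over the 4 libraries of a line, which differ in treatment and are not replicate cultures. P-values for differences in response rest on how far the drug effects depart from adding up within a line. Spread between cultures of a line was not measured.

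Collagens wind 3 chains into a helix and form fibrils or networks, laminins join an alpha, a beta and a gamma chain into the cross-shaped proteins of the basement membrane, and integrins pair 1 alpha with 1 beta subunit, ITGB1 being the most widely shared beta subunit. Ligand-bound integrins assemble kinases and adaptors at focal adhesions, and SHP2 acts in the same signalling layer, between receptors and RAS. In liver most matrix is made by stellate cells, and carcinoma cells make part of their own.

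The lines were checked against cell type markers. Of 12 hepatocyte markers, all had a row, and their summed level lay between 242990 and 632621 in the Hep3B libraries, 344865 and 520185 in the Huh7 libraries and 2429 and 4528 in the MHCC97H libraries, where TTR and APOA1 were under 10 in all 4. Of 12 stellate cell and fibroblast markers only PDGFRB and LUM had a row, with a sum of 123 to 823 over the 12 libraries. The 1 endothelial marker with a row, PECAM1, was between 285 and 542 in MHCC97H and at most 55.8 elsewhere, and the 1 leukocyte marker with a row, LYZ, reached 7518 in Huh7. The part of these in the matrix results was not tested.

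The sequences in front of 7 genes are shown, those of the 5 genes that rose with AZD8055 in the test over lines (THBS3, SPARC, ITGAV, LAMB2 and FN1) and of ITGA2 and LAMA3, which had the most negative and the most positive estimate with compound #57. Each is the 250 bases before the RefSeq start of transcription (GRCh38.p14), 5′ to 3′ on the strand of the gene. Capitals mark matches, on either strand, to the GC box GGGCGG, the AP-1 motif TGANTCA, the TEAD motif GGAATG, the cyclic AMP response element TGACGTCA, the E-box CACGTG and the FOXO motif GTAAACA; matches to the GC box can overlap each other.

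THBS3 (chr1:155207898-155208147, minus strand): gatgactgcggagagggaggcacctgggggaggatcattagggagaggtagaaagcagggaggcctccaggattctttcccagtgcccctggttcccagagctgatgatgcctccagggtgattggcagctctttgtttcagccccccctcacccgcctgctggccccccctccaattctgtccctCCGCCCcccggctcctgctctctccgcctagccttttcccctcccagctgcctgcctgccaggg
SPARC (chr5:151686916-151687165, minus strand): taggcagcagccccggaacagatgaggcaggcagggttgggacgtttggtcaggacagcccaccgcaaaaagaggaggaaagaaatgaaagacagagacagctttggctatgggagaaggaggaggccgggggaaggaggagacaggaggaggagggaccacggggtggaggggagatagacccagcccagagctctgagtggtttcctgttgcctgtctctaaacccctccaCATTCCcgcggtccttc
ITGAV (chr2:186589806-186590055, plus strand): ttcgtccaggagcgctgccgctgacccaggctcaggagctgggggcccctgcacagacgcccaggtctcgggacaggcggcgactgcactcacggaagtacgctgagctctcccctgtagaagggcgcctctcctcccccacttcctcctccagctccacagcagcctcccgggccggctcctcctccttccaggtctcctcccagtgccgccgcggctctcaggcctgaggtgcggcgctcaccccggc
LAMB2 (chr3:49133051-49133300, minus strand): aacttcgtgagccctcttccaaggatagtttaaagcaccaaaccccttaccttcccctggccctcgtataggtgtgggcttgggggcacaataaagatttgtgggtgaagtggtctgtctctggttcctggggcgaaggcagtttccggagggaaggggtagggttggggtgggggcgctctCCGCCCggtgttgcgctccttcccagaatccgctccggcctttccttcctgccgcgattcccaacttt
FN1 (chr2:215436069-215436318, minus strand): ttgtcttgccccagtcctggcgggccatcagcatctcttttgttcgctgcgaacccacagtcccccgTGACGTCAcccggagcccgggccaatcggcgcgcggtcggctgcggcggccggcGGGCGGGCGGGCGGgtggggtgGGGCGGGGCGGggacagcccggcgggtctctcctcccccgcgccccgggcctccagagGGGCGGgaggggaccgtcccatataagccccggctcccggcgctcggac
ITGA2 (chr5:52989102-52989351, plus strand): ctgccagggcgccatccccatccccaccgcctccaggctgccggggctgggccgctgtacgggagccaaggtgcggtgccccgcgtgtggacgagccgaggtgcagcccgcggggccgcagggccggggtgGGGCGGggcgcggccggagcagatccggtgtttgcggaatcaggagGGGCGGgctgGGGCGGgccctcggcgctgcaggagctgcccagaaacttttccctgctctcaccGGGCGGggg
LAMA3 (chr18:23872770-23873019, plus strand): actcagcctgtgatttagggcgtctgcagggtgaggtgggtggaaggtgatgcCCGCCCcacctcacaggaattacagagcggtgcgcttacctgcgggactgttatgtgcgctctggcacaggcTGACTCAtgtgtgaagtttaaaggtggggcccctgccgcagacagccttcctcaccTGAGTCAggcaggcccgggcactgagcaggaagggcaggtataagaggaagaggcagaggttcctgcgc

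The FN1 window held 6 GC boxes and a cyclic AMP response element whose first base lies 183 bases before the start, the ITGA2 window 4 GC boxes, and the THBS3 and LAMB2 windows 1 GC box each. The SPARC window held 1 TEAD motif, the ITGAV window none of the motifs searched, and the LAMA3 window 1 GC box and 2 AP-1 motifs. The LAMA3 window belongs to a shorter transcript, whose start lies 183567 bases from that of the Ensembl canonical transcript, while the other 6 windows meet the canonical start. Of the 50 genes, 36 had a window, and 27 of them held a GC box, compared with 42.6% of all 35114 windows. The 36 are 1 window per gene, the nearest to the canonical start. All windows were limited neither to 1 per gene nor to genes with a row, so the sets are unlike. An AP-1 motif stood in 1 of 36 (LAMA3) and in 6.6% of all windows, a TEAD motif in 4 of 36 (ITGA5, ITGB1, SPARC and THBS1) and in 11.9%, a cyclic AMP response element in 1 of 36 (FN1) and in 1.6%, and the E-box and the FOXO motif in 0 of 36 and in 6.3% and 3.0%. A match is only a match of letters.

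**Figure D1:**
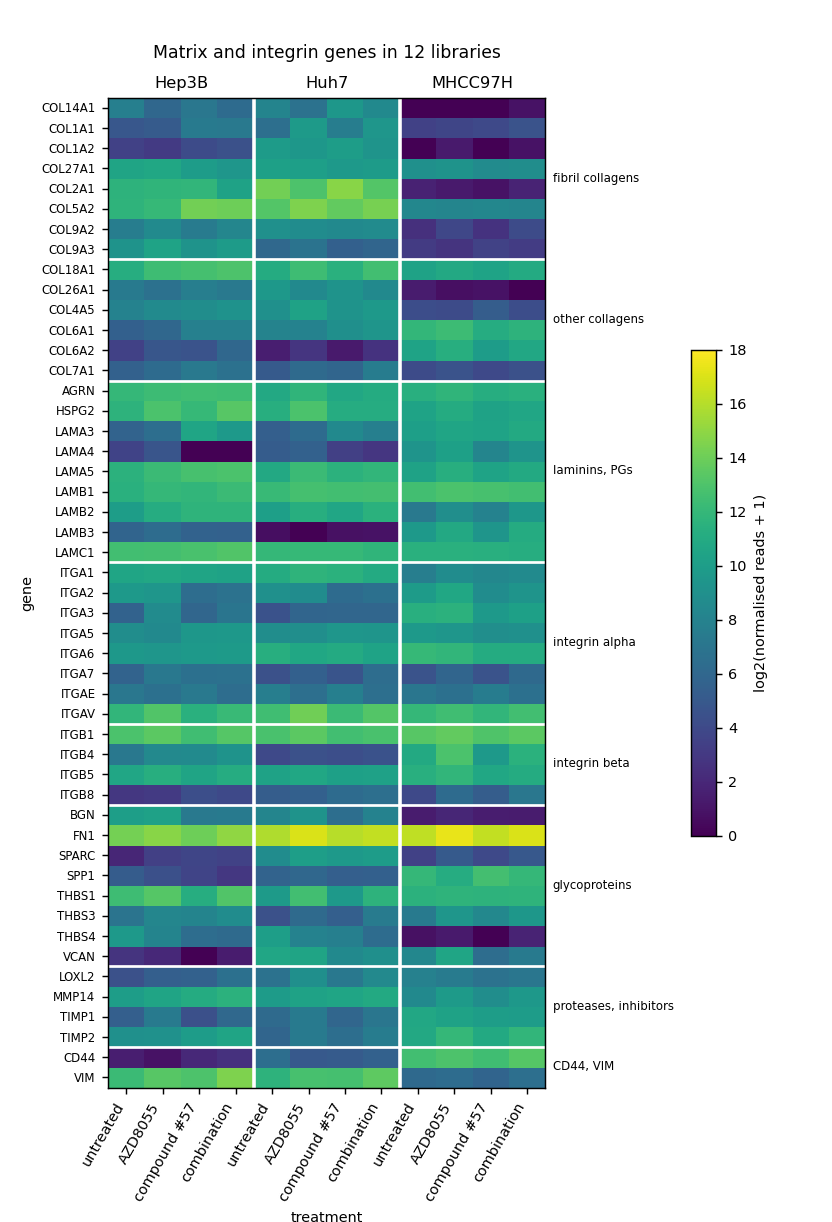
Level of 49 of the 50 genes (rows, grouped by role, with PGs for proteoglycans) in the 12 libraries (columns, by line and treatment), as log2(normalised reads + 1) from dark (0) to yellow (18). CD44, COL2A1 and LAMB3 differ more between lines than between treatments of a line, while LAMA3 spans 51.6 to 1560 within Hep3B, and 32 of the 50 genes have no line whose 4 libraries all lie above the others. The share of all genes without such a line was not counted.

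The lines expressed different matrix genes. The table keeps genes by their mean over all libraries, so a gene that is low in 1 line had to be high in another to be listed, and counts between lines are given as a description. In bulk RNA fewer cells that express a gene and less RNA per cell cannot be told apart. Against the mean of Hep3B and Huh7, MHCC97H was at least 2-fold higher with an adjusted p under 0.05 (limma, treatment and line as terms) for 17 of 50 genes, where 14.7% of all genes were, and lower for 22, where 17.8% were. The 4 libraries of a line differ in treatment, so the SE and p-values between lines do not measure spread between cultures. All 8 fibrillar and fibril-associated collagens were lower in MHCC97H. COL2A1, the fibrillar collagen of cartilage, was between 7868 and 28100 in Huh7, between 1343 and 3684 in Hep3B and between 0.88 and 2.43 in MHCC97H, a log2 difference of −11.17 (SE 0.34). COL5A2, a chain that starts collagen fibrils, was between 3274 and 23422 in Hep3B and Huh7 and between 296 and 327 in MHCC97H. COL14A1 and COL1A2 were at most at 0.81 and 1.41 in MHCC97H and reached 729 and 1017 in Huh7. COL26A1, grouped with the other collagens, was also between 0.00 and 1.54 in MHCC97H.

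The genes that were higher in MHCC97H were of other kinds. CD44 was between 5853 and 9958 in MHCC97H, between 31.6 and 90.9 in Huh7 and at most 4.86 in Hep3B, a log2 difference of 9.17 (SE 0.30). SPP1, the secreted integrin ligand osteopontin, was between 2241 and 6295 in MHCC97H and at most 64.0 in the other lines. The beaded-filament collagen COL6A2 was between 974 and 2508 in MHCC97H, at most 64.8 in Hep3B and at most 5.82 in Huh7, and its partner COL6A1 was above both other lines in all 4 libraries as well. In these genes no library of MHCC97H overlapped the libraries of the other lines.

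The laminin genes split by chain. LAMB3 and LAMA4 were higher in MHCC97H, by 7.04 (SE 0.33) and 6.10 (SE 0.50) on the log2 scale, and so was LAMA3, an alpha chain of epithelial laminin. LAMA5, LAMB2, LAMC1 and the proteoglycan perlecan (HSPG2) were lower in MHCC97H, with log2 differences of −2.59 (SE 0.20) for LAMB2, −1.42 (SE 0.25) for HSPG2 and −1.24 (SE 0.18) for LAMA5. LAMB3 was at most 0.86 in Huh7, where all 4 libraries together held under 20 of its reads. The matrix-linked genes went apart too. TIMP1 and TIMP2, inhibitors of metalloproteinases, were higher in MHCC97H by 4.04 (SE 0.32) and 3.15 (SE 0.24), and MMP14, a membrane metalloproteinase, was lower (−1.43, SE 0.18), its levels being 375 to 893 in MHCC97H and 938 to 3075 in the other lines. VIM was between 55.3 and 93.9 in MHCC97H and between 3246 and 23408 in the others, with a log2 difference of −6.75 (SE 0.21). BGN and THBS4, a small proteoglycan and a thrombospondin, were at most at 2.81 and 2.43 in MHCC97H, with log2 differences of −6.84 and −6.87.

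Hep3B was higher than Huh7 for 9 of the 50 genes (12% of all genes) and lower for 15 (9.4%). VCAN, the proteoglycan versican, was between 368 and 1626 in Huh7 and at most 5.63 in Hep3B, a log2 difference of −8.11 (SE 0.41) for Hep3B against Huh7. SPARC, a collagen-binding matricellular protein, was between 429 and 1093 in Huh7 and between 2.81 and 12.8 in Hep3B, with a difference of −6.43 (SE 0.25), and COL1A2 had a difference of −5.90 (SE 0.40), with levels of 7.36 to 21.1 against 630 to 1017. Higher in Hep3B were LAMB3 (5.25, SE 0.38), ITGB4 (4.07, SE 0.48), COL9A3 (3.64, SE 0.32), TIMP2 (2.79, SE 0.28) and COL6A2 (2.69, SE 0.33), and CD44, ITGB8, LOXL2 and COL2A1 were lower, with log2 differences from −3.83 (CD44) to −2.33 (LOXL2). Over the 50 genes, 10 had all 4 MHCC97H libraries above all others, 5 had all Huh7 libraries above all others (COL1A2, COL26A1, COL2A1, ITGA1 and SPARC), 3 had all Hep3B libraries above all others (AGRN, COL9A3 and LAMC1), and 32 had no such line. The share of all genes with such a line was not counted, so these counts are only a description.

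Levels were compared between genes per kilobase of the Ensembl canonical transcript. FN1, fibronectin, the glycoprotein that several integrins bind, had the highest mean level of the 50 genes in Huh7 (10130 normalised reads per kilobase) and MHCC97H (13841), and its 4 libraries did not overlap those of the next gene there. In Hep3B, VIM had the highest mean (5403), ahead of FN1 (2947) and ITGB1 (2295), with ranges that overlapped from each gene to the next. Behind FN1 came VIM (3344), COL2A1 (3124) and COL5A2 (2405) in Huh7, and ITGB1 (2872), SPP1 (2675), TIMP1 (1647) and CD44 (1383) in MHCC97H.

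Among integrins, ITGB1 had the highest level per kilobase in every line, between 1553 and 3575 over the 12 libraries. ITGAV, the alpha subunit that pairs with ITGB1, ITGB5 or ITGB8, was next by mean, at 711 in Hep3B, 1336 in Huh7 and 701 in MHCC97H. The libraries of ITGB1 and ITGAV did not overlap in Hep3B and MHCC97H and overlapped in Huh7. ITGB4, which pairs with ITGA6 to bind laminin at hemidesmosomes, had a mean of 568 per kilobase in MHCC97H, 63.6 in Hep3B and 3.25 in Huh7. ITGA3, another laminin receptor subunit, had means of 392, 32.9 and 10.4 in the same order, and ITGA1, a collagen receptor subunit, had its lowest mean in MHCC97H (31.5), with 141 in Hep3B and 244 in Huh7. On reads not divided by length, MHCC97H was higher for ITGA3 by 4.49 (SE 0.44), for ITGB4 by 4.89 (SE 0.42), for ITGA2 by 1.78 (SE 0.28) and for ITGA6 by 1.25 (SE 0.19) on the log2 scale, and for ITGA1 the difference was −2.59 (SE 0.15). ITGA5, the alpha subunit of the main fibronectin receptor, lay between 379 and 815 normalised reads in all 12 libraries, and its difference of MHCC97H from the other lines was 0.15 (SE 0.23).

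**Figure D2:**
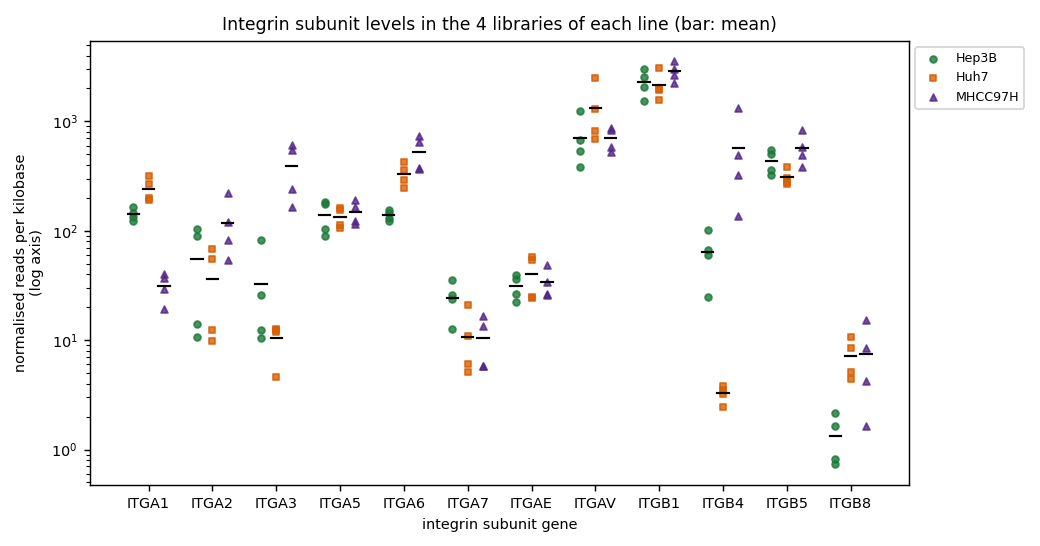
Level of the 12 integrin subunit genes as normalised reads per kilobase of the canonical transcript (log axis), with the 4 libraries of each line as points and their mean as a bar. ITGB1 lies highest in each line, between 1553 and 3575, and ITGB4, ITGA3 and ITGA1 are spread furthest between lines.

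The comparison of AZD8055 with untreated cells asked which of these genes changed on mTOR inhibition in the same way over the lines. FN1, ITGAV, LAMB2, SPARC and THBS3 rose, 5 of 50 genes, where 2.21% of all genes rose, and 0 fell, where 0.753% of all genes fell (adjusted p under 0.05). The median log2 change of the 50 genes was 0.66, and that of all genes 0.03. Of the 50 estimates 41 were positive, and the share of positive estimates among all genes was not counted. An unadjusted p under 0.05 was found for 24 of the 50 genes and for 3165 of all 11548 genes. In all 3 lines the AZD8055 library was above the untreated one for 29 genes (28.4% of all genes) and below it for 3, COL26A1, ITGA6 and ITGAE (25.7%), COL26A1 resting in MHCC97H on 2 reads against 1.

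THBS3, a pentameric thrombospondin, went from 123 in untreated to 303 in AZD8055-treated Hep3B, from 21.3 to 72.3 in Huh7 and from 168 to 696 in MHCC97H. Its log2 change was 1.69 (SE 0.26, adjusted p = 0.029, limma), and it was higher in 3 of 3 lines. SPARC went from 2.81 to 9.82 in Hep3B, from 429 to 1093 in Huh7 and from 9.99 to 33.0 in MHCC97H, a log2 change of 1.49 (SE 0.28, adjusted p = 0.0375). Only the Huh7 libraries held more than 50 SPARC reads each. LAMB2, a laminin beta chain, went from 1028 to 2263 in Hep3B, from 1157 to 2523 in Huh7 and from 154 to 485 in MHCC97H, a log2 change of 1.30 (SE 0.27, adjusted p = 0.0399). LAMB2 was at least 2-fold higher in each of the lines.

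ITGAV went from 3773 to 8727 in Hep3B, from 5790 to 17702 in Huh7 and from 4076 to 5823 in MHCC97H, with a log2 change of 1.11 (SE 0.22, adjusted p = 0.0390). FN1, a ligand of ITGAV receptors, went from 19435 to 28721 in Hep3B, from 60234 to 128084 in Huh7 and from 81332 to 169633 in MHCC97H, with a log2 change of 0.90 (SE 0.20, adjusted p = 0.0467). Both genes were higher in 3 of 3 lines. Just past the threshold stood LAMA5 (1.02, SE 0.24) and ITGB1 (0.54, SE 0.13), each with an adjusted p of 0.0518 in limma, ITGA7 (1.23, SE 0.30, 0.0549) and COL18A1, a basement membrane collagen (1.04, SE 0.26, 0.0561). Of the 5 calls 0 remained in the fit without Hep3B, without Huh7 or without cell line as a term, and 1, ITGAV, remained without MHCC97H.

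By role, the 10 laminins and basement membrane proteoglycans all had positive estimates with AZD8055 (median 0.72), of which LAMB2 passed. LAMC1 was among them with log2 changes of 0.06 in Hep3B, 0.07 in Huh7 and 0.03 in MHCC97H, and LAMB3 was lower in Huh7. The 4 integrin beta subunits (median 0.71) and the 4 proteases, inhibitors and cross-linkers (median 0.86) also had positive estimates, of which none passed. Shares of positive estimates among all genes were not counted. The fibrillar and fibril-associated collagens had 6 positive and 2 negative estimates (median 0.34), and the integrin alpha subunits 5 and 3 (median 0.39). The lowest estimate was that of THBS4 (−1.09, SE 0.74), which went from 827 to 280 in Hep3B, from 1108 to 250 in Huh7 and from 1 to 2 reads in MHCC97H.

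Within single lines, 1 library a condition allows no test, and 2-fold differences were counted among genes with at least 50 reads in either library. In Hep3B, 12 of 41 such genes stood at 2-fold or more above untreated (3.2% of all genes) and 2 as far below (0.67%), in Huh7 21 of 47 above (5.21%) and 6 below (2.47%), and in MHCC97H 11 of 38 above (6.03%) and 0 below (3.02%). The intervals that follow are 95% intervals for counting error only. COL1A1, a chain of type I collagen, had a log2 ratio of AZD8055 to untreated of 3.26 (3.02 to 3.53) in Huh7, with levels of 92.1 and 889, and of 0.31 in both other lines. In Huh7 the thrombospondin THBS1 went from 907 to 5946 and the cross-linking enzyme LOXL2 from 111 to 503. ITGA3 went from 50.7 to 406 in Hep3B. In MHCC97H the leading genes were ITGB8, from 14.6 to 75.8, VCAN, from 328 to 1564, THBS3, given above, and ITGB4, from 1915 to 7749.

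**Figure D3:**
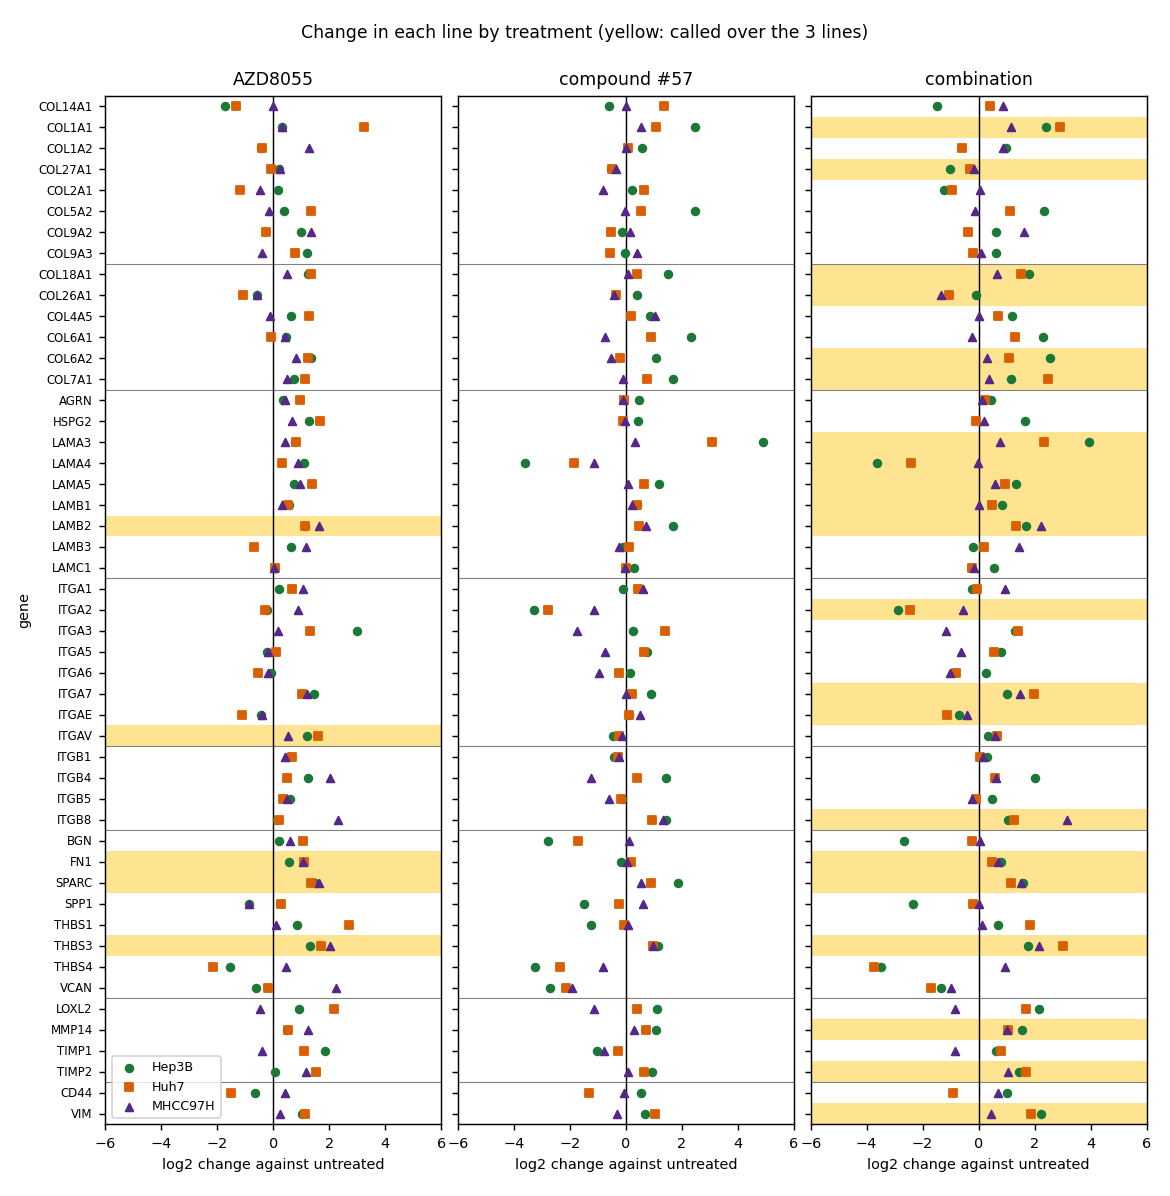
Difference of log2(normalised reads + 1) between each treatment and the untreated library of the same line, for Hep3B (circles), Huh7 (squares) and MHCC97H (triangles), with genes grouped by role and yellow bands on genes called over the 3 lines (adjusted p under 0.05, limma). With AZD8055 5 genes are called, all to the right of 0 in each line, with compound #57 0, and with the combination 22, of which 21 are drawn.

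With compound #57 alone no gene of the 50 passed the test over lines, and the lines went apart. Higher and lower calls were 0 of 50 each, where 0.00866% of all genes (1 gene) rose and 0.0% fell. Without MHCC97H 9 genes were called (BGN, COL6A1, ITGA2, LAMA3, MMP14, SPARC, THBS4, VCAN and VIM), without Hep3B or without Huh7 0, and by voom on the whole reads of all lines 2 (ITGA2 and THBS4). How many of all genes those fits called is not given here, so these counts show only how the calls depend on the fit. At an unadjusted p under 0.05 there were 16 of the 50 and 2501 of all genes. The median log2 change was 0.12, and that of all genes 0.05. In all 3 lines the compound #57 library was above the untreated one for 13 genes (30.6% of all genes) and below it for 9 (19.7%). The untreated libraries were the same as in the comparison with AZD8055.

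ITGA2, a collagen receptor subunit that pairs with ITGB1, had the most negative estimate. It was at 823 in untreated and 84.5 in compound #57-treated Hep3B, at 531 and 76.7 in Huh7 and at 934 and 423 in MHCC97H, and its estimate was −2.39 (SE 0.38, adjusted p = 0.0912, limma). The log2 ratios in single lines were −3.27 (−3.56 to −3.02), −2.77 (−3.10 to −2.50) and −1.14 (−1.30 to −0.99). VCAN was at 1626 and 368 in Huh7 and at 328 and 86.0 in MHCC97H, with 6 and 0 reads in Hep3B, and its estimate was −2.26 (SE 0.48, adjusted p = 0.0912). Both genes were lower in 3 of 3 lines. LAMA4, a laminin chain of vessel walls, was lower in 3 of 3 lines too, at 648 and 295 in MHCC97H, with 59 and 13 reads in Huh7 and 12 and 0 reads in Hep3B.

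LAMA3 had the most positive estimate, 2.76 (SE 0.71, adjusted p = 0.104). It was at 51.6 in untreated and 1560 in compound #57-treated Hep3B, at 42.6 and 364 in Huh7 and at 1125 and 1416 in MHCC97H. With compound #57 the Hep3B level lay above, and the Huh7 level below, the untreated level of MHCC97H. THBS3 was at 273 in Hep3B, 42.1 in Huh7 and 331 in MHCC97H with compound #57, each above untreated, with an estimate of 1.02 (SE 0.26, adjusted p = 0.104), and ITGB8 and COL1A1 were also above untreated in 3 of 3 lines.

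Counted as at least 2-fold, 13 of 41 genes were higher with compound #57 in Hep3B (8.61% of all genes) and 4 lower (3.54%), 5 of 46 higher in Huh7 (3.87%) and 6 lower (1.42%), and 0 of 36 higher in MHCC97H (1.81%) and 7 lower (0.56%). In Hep3B COL5A2 was at 3274 and 18122, a log2 ratio of 2.47 (2.42 to 2.52), and COL1A1 at 28.1 and 158. BGN was at 1085 and 156 in Hep3B and at 295 and 88.5 in Huh7, and THBS4 at 827 and 85.2 and at 1108 and 214. In MHCC97H the genes at least 2-fold lower included ITGA2, ITGA3, ITGB4, LAMA4, LOXL2 and VCAN. Of these ITGA3 was at 2681 and 807, a ratio of −1.73 (−1.84 to −1.63), and ITGB4 at 1915 and 797. The hepatocyte markers had a median change of 0.57 with compound #57, with 0 of 12 called.

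**Figure D4:**
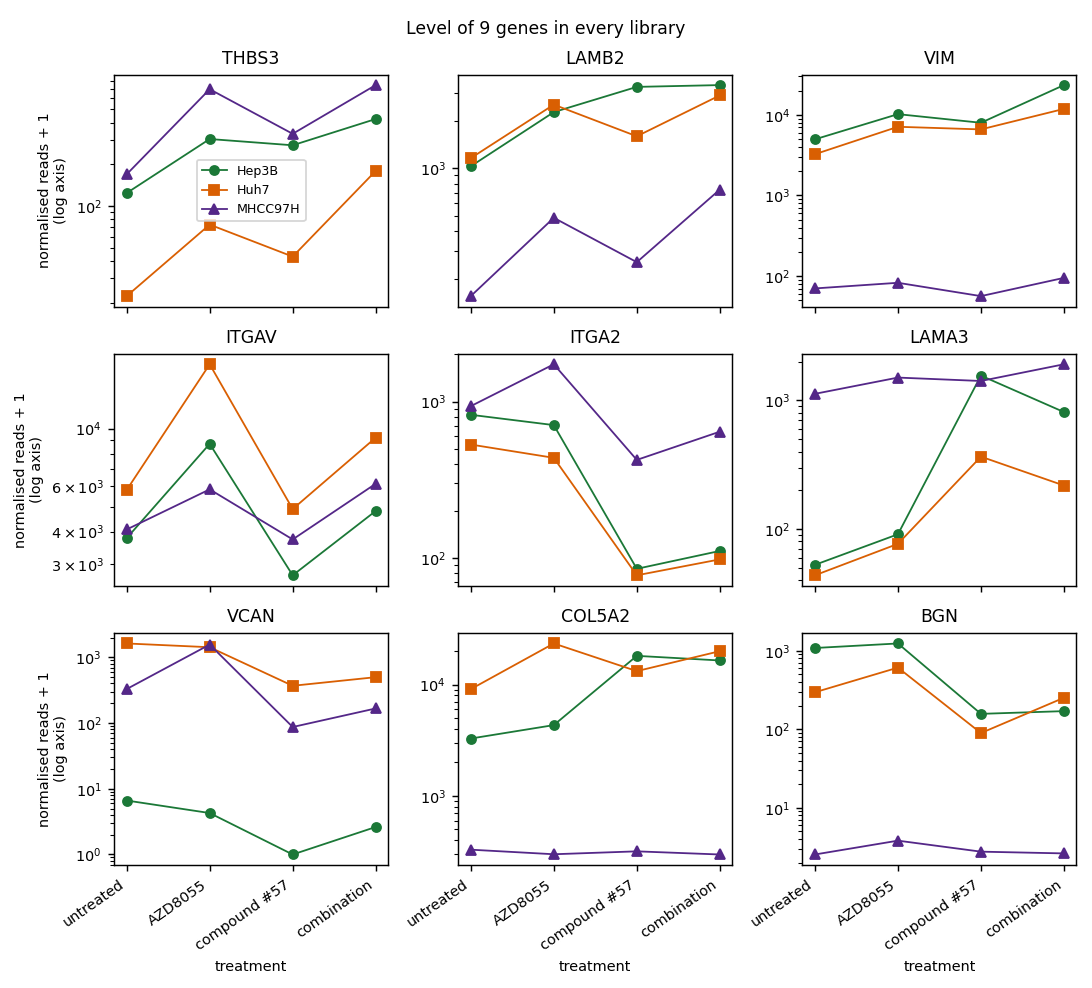
Normalised reads plus 1 (log axis) of 9 genes in each library, by treatment, with a line joining the 4 libraries of each cell line. THBS3 and LAMB2 lie above untreated in each treated library, ITGA2 lies below untreated in the libraries given compound #57, and in VIM, COL5A2 and BGN each MHCC97H library lies below all others.

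With the combination more genes passed. Of the 50 genes 17 rose (20.9% of all genes) and 5 fell (15.1%) against untreated. The median log2 change was 0.52, and that of all genes 0.09. In all 3 lines 22 genes were above untreated (33.4% of all genes) and 7 below (25.6%). The basement membrane list had 5 genes that rose, LAMA3, LAMA5, LAMB1 and LAMB2 among them, and 1 that fell (LAMA4) of 10. Of the 6 other collagens 3 rose (COL18A1, COL6A2 and COL7A1) and 1 fell (COL26A1). COL6A2 rested in Huh7 on 3 reads untreated and 6 with the combination, and COL26A1 in MHCC97H on 2 and 0. Neither was called when 10 in place of 1 was added before the log. Without cell line as a term 0 of the 22 calls remained. They numbered 9 without Hep3B, 0 without Huh7 and 28 without MHCC97H, 19 of which were among the 22. The number of all genes called in those fits is not given here.

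THBS3 had the smallest adjusted p, 0.00169 (limma), with a log2 change of 2.31 (SE 0.26) and levels of 424 in Hep3B, 178 in Huh7 and 746 in MHCC97H with the combination. LAMB2 reached 3354, 2887 and 732, a change of 1.75 (SE 0.27, adjusted p = 0.00301). VIM reached 23408 in Hep3B, 11855 in Huh7 and 93.9 in MHCC97H, from 4967, 3246 and 69.1 untreated, and its change was 1.51 (SE 0.28, adjusted p = 0.00504). These 3 genes had their highest level of the 4 treatments in the combination library in each line.

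ITGA2 fell by 1.96 on the log2 scale (SE 0.38, adjusted p = 0.00567) and was at 110 in Hep3B, 97.3 in Huh7 and 642 in MHCC97H with the combination. ITGAE, the alpha subunit that marks lymphocytes of epithelia, fell by 0.75 (SE 0.18, adjusted p = 0.0137), with levels of 84.3, 92.9 and 98.7 from 138, 205 and 131. LAMA4 fell by 2.03 (SE 0.66, adjusted p = 0.0385), with 12 and 0 reads in Hep3B, though its levels in MHCC97H were 648 untreated and 636 with the combination. Among the integrins ITGA7, a laminin receptor subunit, rose by 1.49 (SE 0.30, adjusted p = 0.00684) and ITGB8 by 1.82 (SE 0.48, adjusted p = 0.0174). ITGB8 had 18 reads with the combination in Hep3B and 170 in MHCC97H.

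MMP14 rose by 1.21 (SE 0.24, adjusted p = 0.00652) and TIMP2 by 1.40 (SE 0.32, adjusted p = 0.0109). MMP14 went from 1042 to 3075 in Hep3B, from 938 to 1951 in Huh7 and from 375 to 764 in MHCC97H. TIMP2 went from 526 to 1443, from 58.3 to 192 and from 1829 to 3770. Both were higher in 3 of 3 lines. LAMA3 rose by 2.34 (SE 0.71, adjusted p = 0.0298) and COL1A1 by 2.15 (SE 0.65, adjusted p = 0.0289). FN1 (0.65, SE 0.20) and SPARC (1.43, SE 0.28) also rose, and ITGAV had an estimate of 0.54 (SE 0.22, adjusted p = 0.0799).

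The combination was also set against AZD8055 alone, which asks what the SHP2 inhibitor added. None of the 50 genes passed, 0 higher and 0 lower, where 0.0% of all genes were called in either direction, and 11 of the 50 and 1673 of all genes had an unadjusted p under 0.05. The median log2 difference was −0.06 for the 50 genes and 0.04 for all. ITGA2 was at 707 with AZD8055 and 110 with the combination in Hep3B, at 436 and 97.3 in Huh7 and at 1730 and 642 in MHCC97H, with an estimate of −2.08 (SE 0.38, adjusted p = 0.145, limma). LAMA4 had 31 and 0 reads in Hep3B, 56 and 7 in Huh7, and levels of 1203 and 636 in MHCC97H, with an estimate of −2.80 (SE 0.66, adjusted p = 0.169). VCAN (−1.82, SE 0.48) was also lower in 3 of 3 lines. ITGB8, LAMA3 and CD44 were higher in 3 of 3 lines, with estimates of 0.94 (SE 0.48), 1.67 (SE 0.71) and 0.85 (SE 0.40), CD44 resting in Hep3B on 1 and 6 reads. ITGAV was at 8727 and 4806 in Hep3B, at 17702 and 9223 in Huh7 and at 5823 and 6121 in MHCC97H. Both comparisons that hold the combination use the same combination libraries.

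The responses of the lines were compared in a fit with a term for each drug in each line, in which a response is the mean log2 difference over the pair of libraries without and the pair with the other drug. The AZD8055 response of MHCC97H was above the mean of Hep3B and Huh7 for 6 of 50 genes (5.07% of all genes) and below it for 5 (4.46%), at an adjusted p under 0.05. TIMP1 had the smallest adjusted p (0.00627, limma), with responses of 1.76 in Hep3B, 1.08 in Huh7 and −0.23 in MHCC97H and a difference of −1.65 (SE 0.19). THBS1 had responses of 1.40, 2.30 and 0.08, a difference of −1.77 (SE 0.32, adjusted p = 0.0188), and stayed between 3072 and 3375 in the 4 MHCC97H libraries. ITGB4 and ITGB8 had larger responses in MHCC97H, 1.95 and 2.07, with differences of 1.31 (SE 0.22, adjusted p = 0.0142) and 1.99 (SE 0.35, adjusted p = 0.0159). COL14A1 and THBS4, which were also called, had under 20 reads in all 4 MHCC97H libraries together, so that their responses there stand on single reads, and so had LAMB3 in Huh7.

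For compound #57 the response of MHCC97H was above that of the other lines for 4 genes (2.75% of all genes) and below it for 9 (2.42%). Among the 9 were COL5A2, COL6A1, ITGA5, ITGA6, ITGB4, LAMA3, MMP14 and VIM. COL6A1 had responses of 2.09 in Hep3B, 1.13 in Huh7 and −0.71 in MHCC97H, with a difference of −2.31 (SE 0.19, adjusted p = 0.0034, limma). Its levels in MHCC97H were 3778 untreated and 2273 with compound #57, and in Hep3B 46.0 and 232. ITGB4 had responses of 1.10, 0.25 and −1.33, a difference of −2.00 (SE 0.22, adjusted p = 0.00554). ITGA5 had responses of 0.89, 0.55 and −0.59, and ITGA6 of 0.25, −0.26 and −0.89. In ITGA5, COL6A1 and ITGB4 the sign was positive in Hep3B and Huh7 and negative in MHCC97H. For ITGB4 the sign in Huh7 rested on 23 reads untreated and 26 with compound #57. LAMA3 had a difference of −2.82 (SE 0.52, adjusted p = 0.0232), with a response of 0.34 in MHCC97H, where its untreated level was the highest of the lines.

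The 4 genes with a higher response in MHCC97H were BGN, ITGA2, LAMA4 and SPP1. SPP1 had responses of −1.49, −0.38 and 0.74, a difference of 1.68 (SE 0.19, adjusted p = 0.0058, limma). It was at 4087 untreated and 6295 with compound #57 in MHCC97H. In Hep3B it lay between 6.5 and 36.6, with 90 reads over the 4 libraries. ITGA2 had negative responses in each line, −2.97, −2.46 and −1.29, with a difference of 1.43 (SE 0.24, adjusted p = 0.0179). BGN had 10 reads over the 4 MHCC97H libraries, and its response there stands on those.

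**Figure D5:**
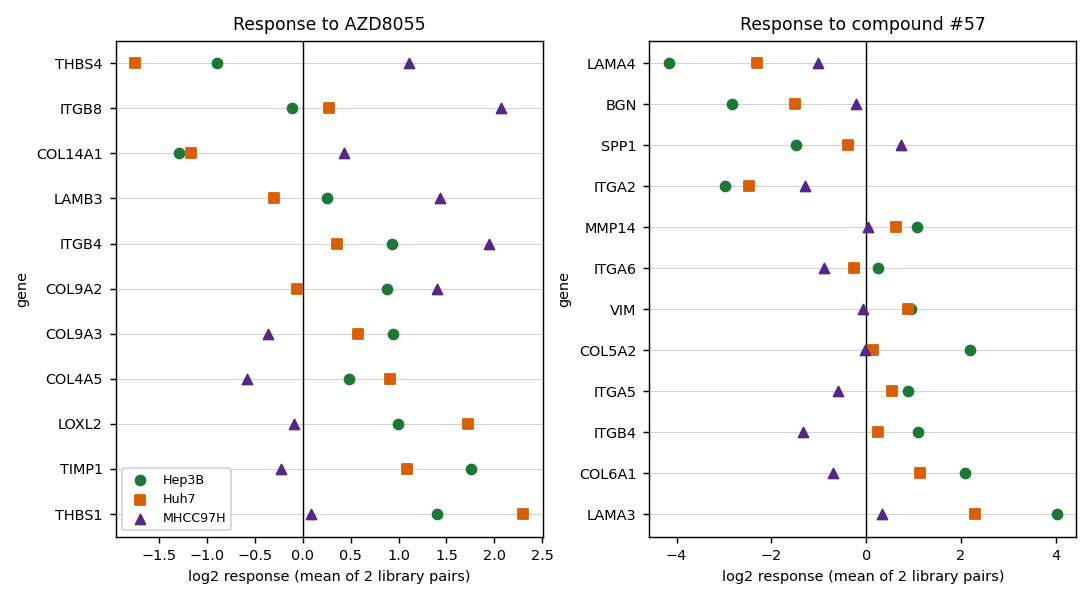
Responses to AZD8055 (left) and to compound #57 (right) of genes whose response differed between MHCC97H (triangles) and the mean of Hep3B (circles) and Huh7 (squares), in log2 units averaged over the pair of libraries without and the pair with the other drug. With AZD8055, THBS1 lies at 1.40 in Hep3B, 2.30 in Huh7 and 0.08 in MHCC97H, and with compound #57 LAMA3 lies at 4.03, 2.29 and 0.34.

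Genes that work with the matrix were counted from 4 lists, to be read against the 2.21% of all genes that rose and 0.753% that fell with AZD8055 and the 20.9% and 15.1% with the combination. Of 38 other matrix glycoproteins and proteoglycans with a row, 5 rose with AZD8055 (CRIM1, CYR61, DDR1, EFEMP2 and GPC6) and 0 fell. With the combination 17 rose and 2 fell (NID1 and SDC1). The 17 included the fibrinogen chains FGA, FGB and FGG and vitronectin (VTN), and FGB was also on the list of hepatocyte markers. DDR1, a receptor for collagens, rose by 1.46 (SE 0.15, adjusted p = 0.00922, limma) with AZD8055 and by 1.62 (SE 0.15, adjusted p = 0.00119) with the combination. FBN1, the fibrillin of microfibrils, rose by 2.43 (SE 0.44) with the combination. Of 38 genes of the integrin adhesion complex 4 rose with AZD8055 (DOCK1, PARVA, TNS1 and TSPAN4). With the combination 12 rose and 4 fell (CRKL, FERMT1, ITGB1BP1 and TSPAN4). TSPAN4 thus changed direction, from 0.64 (SE 0.13) with AZD8055 to −0.38 (SE 0.13) with the combination. TNS1, the focal adhesion protein tensin, had the largest change among those called, 2.39 (SE 0.35) with AZD8055 and 3.19 (SE 0.35) with the combination. PARVA and ILK, partners in a complex at integrin tails, rose by 1.03 (SE 0.19) and 0.63 (SE 0.11) with the combination.

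The 20 genes that fold, modify and cross-link collagen had a median change of −0.28 with AZD8055, with 1 gene that rose (LOXL4), where 2.21% of all genes rose. With the combination 2 rose (BMP1 and LOXL4), where 20.9% of all genes rose, and 7 fell, where 15.1% fell. Those that fell were LOX, P4HB, PCOLCE2, PLOD1, PLOD3, PPIB and SEC24D. P4HB, a subunit of the prolyl hydroxylase of collagen, fell by 0.67 (SE 0.17, adjusted p = 0.0142), and PPIB, a prolyl isomerase that acts on collagen chains, fell by 1.14 (SE 0.22, adjusted p = 0.00604). Of 20 other matrix proteases and inhibitors 1 rose with AZD8055 (RECK, an inhibitor of metalloproteinases, by 1.09, SE 0.20), and with the combination 4 rose (ADAM8, MMP11, MMP24 and RECK) and 1 fell (ADAM15), a share of higher calls near the 20.9% of all genes. None of the genes of the 4 lists passed with compound #57 alone or for the combination against AZD8055.

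Marker lists were counted in the same way. With AZD8055, 1 of 6 epithelial markers rose (CLDN1) and 0 of 4 mesenchymal markers with a row were called, where 2.21% of all genes rose. With the combination, where 20.9% of all genes rose and 15.1% fell, 2 epithelial markers rose, CLDN1 and KRT8, and of the mesenchymal markers CDH2 rose by 2.17 (SE 0.40) while SNAI1 and S100A4 fell by 1.34 (SE 0.21) and 1.73 (SE 0.38). The summed level of the mesenchymal markers was 835 to 5016 in Hep3B, 1735 to 6475 in Huh7 and 11940 to 15019 in MHCC97H, the last mostly S100A4 (9068 to 13311). The part of these markers in the changes of VIM or of the matrix genes was not tested.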

How the data were processed

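RNA was extracted from 12 cultures (3 lines, 4 treatments, 1 library each), and stranded polyA+ libraries were aligned to hg38; the aligner and counter are not given in the sources used here. The authors deposited 1 table of log2 values, which the values show to be log2 of the reads of a gene scaled to 10000000 reads per library (normalised reads), plus 1, with 0 reads written as 0.001. The lowest mean of a listed gene was 4.65, and whole reads were recovered from 100.0% of values within 0.1.

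limma 3.58.1 in R 4.3.3 (lmFit, eBayes with trend) was fitted to log2(normalised reads + 1) of all 11548 rows, with treatment and cell line as terms and 6 residual degrees of freedom, and with a term for each drug in each line (3 residual degrees of freedom) for differences in response. Fold changes on this scale understate the change of low genes. P-values were adjusted over all rows by Benjamini-Hochberg, and a gene was called under 0.05, and for lines also at 2-fold. The whole reads were tested with voom as an alternative. The cell line is the pairing factor, since the 4 libraries of a line come from 1 cell line. Single-line ratios carry Clopper-Pearson intervals. On simulated data with 200 changed genes of 11548 for AZD8055 against untreated, 53% were called at a log2 change of 1, 93% at 2 and 0% at 0.5.

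The genes and lists were chosen with earlier results of these data known. Named were the called genes (up to 12 by size), 3 per direction changed alike in all lines, and up to 6 per line at least 2-fold apart; others were named after their values were seen. Of the 50 genes 1 was counted but its values are not reported here. GENCODE 44 gave transcript lengths for all 50 genes.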

Additional observations from a re-analysis of the deposited data

Results flagged for a closer look

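The responses of MHCC97H to a drug differed from the mean of Hep3B and Huh7 for 24 pairs of gene and drug, 23 of which are given here, by a test of the difference itself (limma, adjusted p under 0.05). For AZD8055 the log2 differences above 0 were 2.43 for THBS4, 1.99 for ITGB8, 1.66 for COL14A1, 1.46 for LAMB3, 1.31 for ITGB4 and 1.0 for COL9A2. Those below 0 were −1.77 for THBS1, −1.65 for TIMP1, −1.45 for LOXL2, −1.28 for COL4A5 and −1.13 for COL9A3. THBS4 and COL14A1 had under 20 reads in the 4 MHCC97H libraries together, and LAMB3 had under 20 in Huh7. Over the MHCC97H libraries COL9A3 had 40 reads, COL9A2 51 and COL4A5 111. By voom on the whole reads COL14A1, COL4A5, COL9A2 and COL9A3 were not called, while COL1A2 and ITGA2 were.

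For compound #57 the differences above 0 were 2.21 for LAMA4, 1.95 for BGN, 1.68 for SPP1 and 1.43 for ITGA2. Those below 0 were −2.82 for LAMA3, −2.31 for COL6A1, −2.00 for ITGB4, −1.31 for ITGA5, −1.21 for COL5A2, −0.97 for VIM, −0.89 for ITGA6 and −0.82 for MMP14. BGN had 10 reads in MHCC97H, and LAMA4 had 0 reads in both Hep3B libraries given compound #57. Over the 4 libraries of a line SPP1 had 90 reads in Hep3B and ITGB4 had 100 in Huh7. By voom on the whole reads VIM was not called, while COL6A2 was. MHCC97H was exposed for 24 h and the other lines for 48 h, and line and time cannot be told apart in any of these differences.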

How the results depend on the processing

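Of 858 values of single genes computed under alternatives 850 kept their direction. The genes were named for being called, changing alike in all lines or differing at least 2-fold. Fits without the pairing block or of only the libraries compared leave an estimate as it is. The count was thus largely fixed beforehand and does not measure how robust the directions are. The cell line as a pairing block decided the counts over treatments. Without the block 0 genes were called with AZD8055 (5 with it) and 0 with the combination (22). Leaving out 1 line each gave 0 to 1 with AZD8055, 0 to 9 with compound #57 (0 with all lines), 0 to 28 with the combination and 0 to 1 for the combination against AZD8055 (0). Fits of only the libraries compared called 0 with AZD8055 and 13 with the combination. voom called 9 with AZD8055 and 2 with compound #57 (ITGA2 and THBS4). Keeping the 75% of genes with the highest mean called 12 with the combination, 23 of 39 for MHCC97H against the other lines, 10 of 24 for Hep3B against Huh7 and 4 of 11 for the AZD8055 response, since fewer of the 50 genes were then tested. A fit with 1 additive term per drug over all 12 libraries, chosen after seeing the data, called 21 with AZD8055 and 12 with compound #57. These counts are of the 50 genes, and how many of all genes each alternative called is not given here. They show only how the calls depend on the fit. Some gene estimates turned when 1 line was left out, with ranges of −0.41 to 1.03 for VCAN with AZD8055, −0.74 to 0.83 for ITGA3 and −0.44 to 0.91 for ITGB4 with compound #57, −0.0066 to 0.81 for LAMB3 with the combination, and −0.12 to 0.96 for COL5A2 and −0.65 to 0.44 for ITGB4 for the combination against AZD8055. Under voom ITGB4 (−0.10) turned with compound #57 and ITGA3 (−0.29) with the combination. None of these was called, and the cause was not tested. Depth limits genes under 20 reads in a line, and leaving out a line leaves 2 libraries a treatment.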
